A study of Mus musculus with 6 samples.

Results

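The mitochondrial ribosomal protein genes were described in cells of squamous cell carcinomas of mouse skin. They were taken as every protein-coding gene of the deposited table whose symbol begins with Mrpl or Mrps followed by a digit, which gave 78 genes of 55481 in all and of 21834 protein-coding ones. The rule itself uses symbols and no measured value. The tumours had been raised with the carcinogen DMBA and the promoter TPA, and poly(A) RNA was sequenced in bulk. The compared populations were cells that carried CD80, a ligand of T cell co-stimulation, and high Itga6, an integrin chain that binds the basement membrane (Itga6hi CD80pos), which the submitters call stem-like, and cells with low Itga6 and no CD80 (Itga6low CD80neg), which they call differentiated. Each had 2 libraries. A further labelled group, Itga6 high and CD80 negative, was not analysed here. All groups share the tissue and the induction of the tumours, and the labels give no genotype, strain, age or pooling, nor any marker of the gate beyond Itga6 and CD80.

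The mitochondrial ribosome, or mitoribosome, translates the few messenger RNAs made from mitochondrial DNA, all of which code for subunits of the respiratory chain and ATP synthase. Its RNAs come from mitochondrial DNA, whereas all of its proteins are encoded in the nucleus, made in the cytosol and imported. The small subunit reads the messenger RNA and the large subunit forms the peptide bond and holds the exit tunnel. Many proteins have counterparts in the bacterial ribosome and others were acquired by mitochondria. Growing and respiring cells, keratinocytes among them, need both this machine and the cytosolic ribosome.

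Values are TPM, transcript levels per length scaled to a fixed total, so the depth of the libraries is unknown. Haemoglobin genes held 0.0185% and 0.00621% of deposited TPM in Itga6hi CD80pos and 70.9% and 50.4% in Itga6low CD80neg, and were left out of the total before the other genes were rescaled. Itga6 stood at 178 and 339 TPM against 5.15 and 3.33, while Cd80 stood at 6.24 and 1.89 TPM against 2.21 and 1.14 and did not pass the test (adjusted p = 0.371), so the table checks the first label better than the second. Of 10 keratinocyte markers 7 were higher in Itga6hi CD80pos, with summed levels of 49272 and 49684 TPM against 6902 and 12135. Of 12 fibroblast markers 11 were lower, at 101 and 142 TPM against 37131 and 15409 summed, and of 7 tested red blood cell markers 7 were lower, at 14.3 and 8.25 TPM against 10566 and 3670.5, with Rhag at 0 in both Itga6hi CD80pos libraries. Summed myeloid markers stood at 1085 and 752 TPM against 2078 and 5331 (5 of 11 lower), endothelial and pericyte markers at 7.47 and 13.6 TPM against 57.8 and 27.6 (1 of 5 lower, 0 higher, 2 with a log2 fold change above 0, the larger 1.06), T, NK and B cell markers at 0.530 and 0.183 TPM against 6.47 and 12.1 (1 of 2 lower, Cd3g and Nkg7 at 0 in both Itga6hi CD80pos libraries), melanocyte and Schwann markers at 1.44 and 1.86 TPM against 107 and 298 (6 of 6 lower), and muscle markers at 5.96 and 10.9 TPM against 352 and 97.3 (4 of 5 lower). The marker with the highest level of each list was the basal keratin Krt14 (26611 and 29434 TPM against 4280 and 8063), the collagen gene Col3a1 (2.22 and 2.56 TPM against 10195 and 4279), the haem synthesis enzyme Alas2 (0.511 and 0.39 TPM against 6127 and 2115) and the neutrophil protein S100a9 (611 and 410 TPM against 1250 and 3201). For the other lists it was the pericyte gene Rgs5 (0.522 and 1.2 TPM against 21.9 and 17.4), the lymphocyte receptor Cd2 (0 and 0.0644 TPM against 0.444 and 3.54), the melanin enzyme Dct (0.245 and 0.427 TPM against 51.1 and 107) and the muscle actin Acta1 (0.0302 and 0 TPM against 138 and 27.7). By the same test 7.48% of all genes were higher in Itga6hi CD80pos and 12.1% lower. The populations thus differed in markers of many cell types, and the part of this in the values below was not tested. In bulk RNA, fewer cells of a type and less RNA per cell cannot be told apart.

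Mitochondrial ribosomal protein genes stood mostly higher in Itga6hi CD80pos. All 78 passed the filter of at least 1 TPM in at least 2 libraries, and 75 had a log2 fold change above 0, against 52.8% of the 14572 genes tested. In 67 of 78 the lower Itga6hi CD80pos library was above the higher Itga6low CD80neg library, which held for 35.4% of all genes tested. Their median log2 fold change was 0.72, with the middle 50% between 0.46 and 0.95, while the median of all genes was 0.08. The single-gene test was far more sparing. With limma, a linear model that borrows the spread from all genes, and Benjamini-Hochberg adjustment over all genes, 7 members were higher and 0 lower at an adjusted p under 0.05. That share of 8.97% lies near the 7.48% of all genes called higher (12.1% were called lower), so the count of calls by itself sets the members apart very little. At an unadjusted p under 0.05, 41 members were higher and 0 lower, against 17.4% and 21.0% of all genes. The difference was thus moderate and shared rather than large in single genes: 17 members had a log2 fold change of at least 1, 38 lay from 0.5 to 1, 20 from 0 to 0.5 and 3 below 0.

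**Figure D1:**
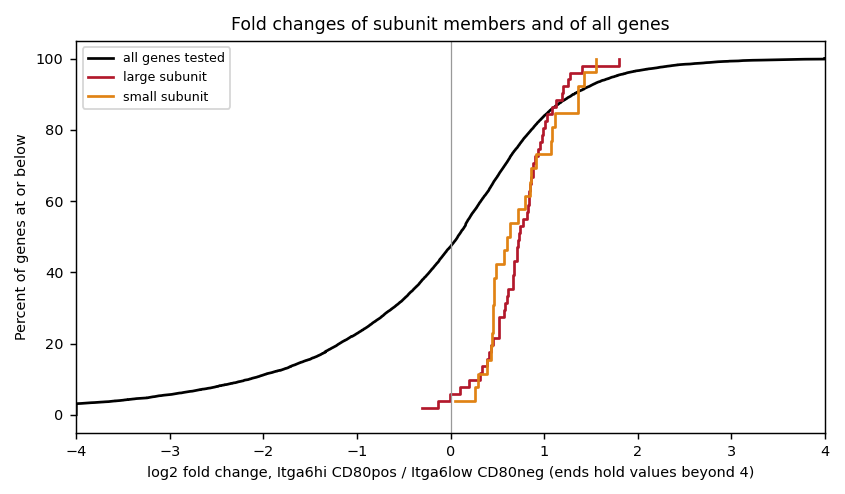
Cumulative percent of genes (y axis) at or below each log2 fold change of Itga6hi CD80pos over Itga6low CD80neg (x axis), for 51 large subunit members, 26 small subunit members and all 14572 genes tested. Both subunit curves rise in a narrow band to the right of 0, with medians of 0.73 and 0.62, while the curve of all genes is broad and centred near 0.08.

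Because most members shared a direction, their promoters were examined. RefSeq windows on GRCm38.p6, from 250 bases before to 50 after the start, were matched for 69 of 78 genes (75 windows of 300 bases), and 4 motifs were searched on both strands. CCGGAAG, the core of the ETS and GABP site, was in 34.7% of member windows, against 8.86% of all 32851 windows and 16.6% of the 13460 windows of genes tested. ATGGCGGC, of the YY1 site, was in 16.0%, against 2.24% and 4.46%, and GCATGCGC, of the NRF1 site, in 10.7%, against 2.71% and 4.82%. The E-box CACGTG was in 9.33%, against 7.15% and 9.64%. Within 150 bases before the start of any member, no match of 1 motif overlapped that of another, while in Mrpl9, Mrpl32 and Mrpl39 a pair of NRF1 matches overlapped each other. A match is a description of the letters. Members with and without a motif had similar medians of log2 fold change: 0.69 and 0.72 for ETS, 0.79 and 0.71 for NRF1, 0.85 and 0.68 for YY1 and 0.77 and 0.69 for the E-box. The 150 bases before the start are given 5′ to 3′ on the gene's strand for the gene with the highest fold change, for Mrps22 as the next, for the abundant large subunit genes Mrpl17 and Mrpl52, and for Mrps18a as the least different of its relatives. Capitals mark a motif.
Mrpl12 (chr11:120484487-120484636, plus strand): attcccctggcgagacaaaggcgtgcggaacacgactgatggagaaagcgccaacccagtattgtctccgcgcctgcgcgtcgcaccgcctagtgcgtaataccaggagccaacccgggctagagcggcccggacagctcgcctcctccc
Mrps22 (chr9:98601680-98601829, minus strand): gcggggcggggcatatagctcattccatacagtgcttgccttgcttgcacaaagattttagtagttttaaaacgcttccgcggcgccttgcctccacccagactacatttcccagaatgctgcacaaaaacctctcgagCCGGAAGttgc
Mrpl17 (chr7:105811088-105811237, minus strand): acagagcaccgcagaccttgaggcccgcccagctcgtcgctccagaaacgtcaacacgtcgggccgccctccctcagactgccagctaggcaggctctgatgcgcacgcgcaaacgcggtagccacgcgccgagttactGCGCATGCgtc
Mrpl52 (chr14:54426759-54426908, plus strand): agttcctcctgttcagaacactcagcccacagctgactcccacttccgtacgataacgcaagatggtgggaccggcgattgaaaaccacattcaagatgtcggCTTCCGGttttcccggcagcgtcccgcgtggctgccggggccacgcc
Mrps18a (chr17:46110854-46111003, plus strand): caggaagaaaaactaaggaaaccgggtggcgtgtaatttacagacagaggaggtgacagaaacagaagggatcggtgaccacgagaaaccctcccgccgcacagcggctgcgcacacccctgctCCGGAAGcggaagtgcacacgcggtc
The ETS letters lie 11 to 5 bases before the start in Mrps22, 47 to 41 in Mrpl52 and 26 to 20 in Mrps18a. The NRF1 letters lie 11 to 4 bases before the start in Mrpl17. Outside the printed stretch, the window of Mrpl17 also holds the ETS letters and that of Mrps18a the YY1 letters. These starts are those of RefSeq, while the gene coordinates given below are from the GENCODE annotation, whose starts can differ. The stretches of Mrpl12, Mrpl17 and Mrps18a reach into the GENCODE genes, and the NRF1 letters of Mrpl17 lie within its GENCODE gene. The stretch of Mrpl12, the gene with the largest difference, holds none of the 4 sets of letters.

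The proteins of the large subunit had a median log2 fold change of 0.73. Of its 51 genes, 5 were called higher (9.8%, near the 7.48% of all genes). In 46 of 51 the groups did not overlap (90.2%, against 35.4% of all genes). Among the called genes Mrpl12 and Mrpl38 had the largest fold changes. The first is in the stalk that recruits translation factors, the second in the central protuberance that faces the small subunit. Mrpl12, the stalk protein (chromosome 11, 120484613 to 120489065, plus strand, GRCm38), had 159.7 and 119 TPM in Itga6hi CD80pos and 29.9 and 50.3 TPM in Itga6low CD80neg. This was the widest gap among the members, 1.80 ± 0.34 (SE) as log2 fold change (adjusted p = 0.0321). Its call held under each of the 5 scalings tried (largest adjusted p = 0.0452). Mrpl11, which sits at the base of the stalk, stood at 53.6 and 46.5 TPM against 22.7 and 25.8 (1.01 ± 0.24 SE, adjusted p = 0.0482). Mrpl10, which anchors Mrpl12 to the ribosome, stood at 52.2 and 37.7 TPM against 27.0 and 22.2 without a call (adjusted p = 0.103). The stalk genes thus had the direction of 75 of the 78 members, which does not set the stalk apart. The difference was larger for Mrpl12 than for its anchor, although the difference between the members was not tested.

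Mrpl38, a mitochondria-specific protein of the central protuberance (chromosome 11, 116131817 to 116138868, minus strand), had 73.1 and 52.8 TPM against 21.6 and 24.2. Its log2 fold change was 1.41 ± 0.27 (SE, adjusted p = 0.0333), and the call held under all 5 scalings. Mrpl46, of the same structure, stood at 33.3 and 24.0 TPM against 13.4 and 9.48, which did not pass here (adjusted p = 0.0634) but did under the other 4 scalings. Mrpl40 stood at 43.4 and 40.2 TPM against 22.4 and 19.9 (adjusted p = 0.0545). Mrpl48, also of the central protuberance, was the exception: at 58.0 and 61.2 TPM against 57.0 and 75.5, its libraries overlapped (log2 fold change -0.14 ± 0.24 SE, adjusted p = 0.716). Genes for proteins of 1 structure thus included both a call and overlapping groups, and the difference between them was not tested.

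Of the remaining large subunit genes, Mrpl17, near the exit tunnel (chromosome 7, 105803206 to 105811099, minus strand), had 262 and 250.04 TPM against 125 and 131. Its libraries of each group lay close together, and the log2 fold change was 0.99 ± 0.20 (SE, adjusted p = 0.0351). Mrpl15, a core protein with a bacterial counterpart, stood at 65.2 and 58.3 TPM against 22.3 and 31.5 (1.19 ± 0.27 SE, adjusted p = 0.0453). Its call and that of Mrpl11 held under 3 of 5 scalings, and that of Mrpl17 under 4. Mrpl19 stood at 30.03 and 27.1 TPM against 13.3 and 9.36, just outside the threshold (adjusted p = 0.0508), and was called under the other 4 scalings. Mrps30, which despite its name belongs to the large subunit, stood at 15.9 and 13.6 TPM against 5.98 and 6.43 (adjusted p = 0.0782). Mrpl11, Mrpl15, Mrpl10 and Mrpl40 were chosen after their values were seen.

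At the other end were 3 more large subunit genes, with log2 fold changes near or below 0. Mrpl33, a short protein with a bacterial counterpart, stood at 160.5 and 186 TPM against 145 and 207, so that the Itga6low CD80neg libraries enclosed the others (log2 fold change -0.00 ± 0.26 SE, adjusted p = 0.991). Mrpl24 stood at 85.6 and 70.9 TPM against 54.6 and 96.7, with the same overlap (0.10 ± 0.34 SE). Mrpl23, at the rim of the exit tunnel, stood at 13.2 and 19.8 TPM against 23.1 and 17.6 and had the lowest log2 fold change of all members, -0.30 ± 0.34 (SE, adjusted p = 0.562). On deposited TPM, where all 78 members were above 0, its log2 fold change was 0.99 and limma called it higher (adjusted p = 0.0489). Its sign thus depends on the scaling. Relative to other genes it did not turn, since it lay below the median of all genes on either scale (0.08 haemoglobin-free, 1.27 as deposited).

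**Figure D2:**
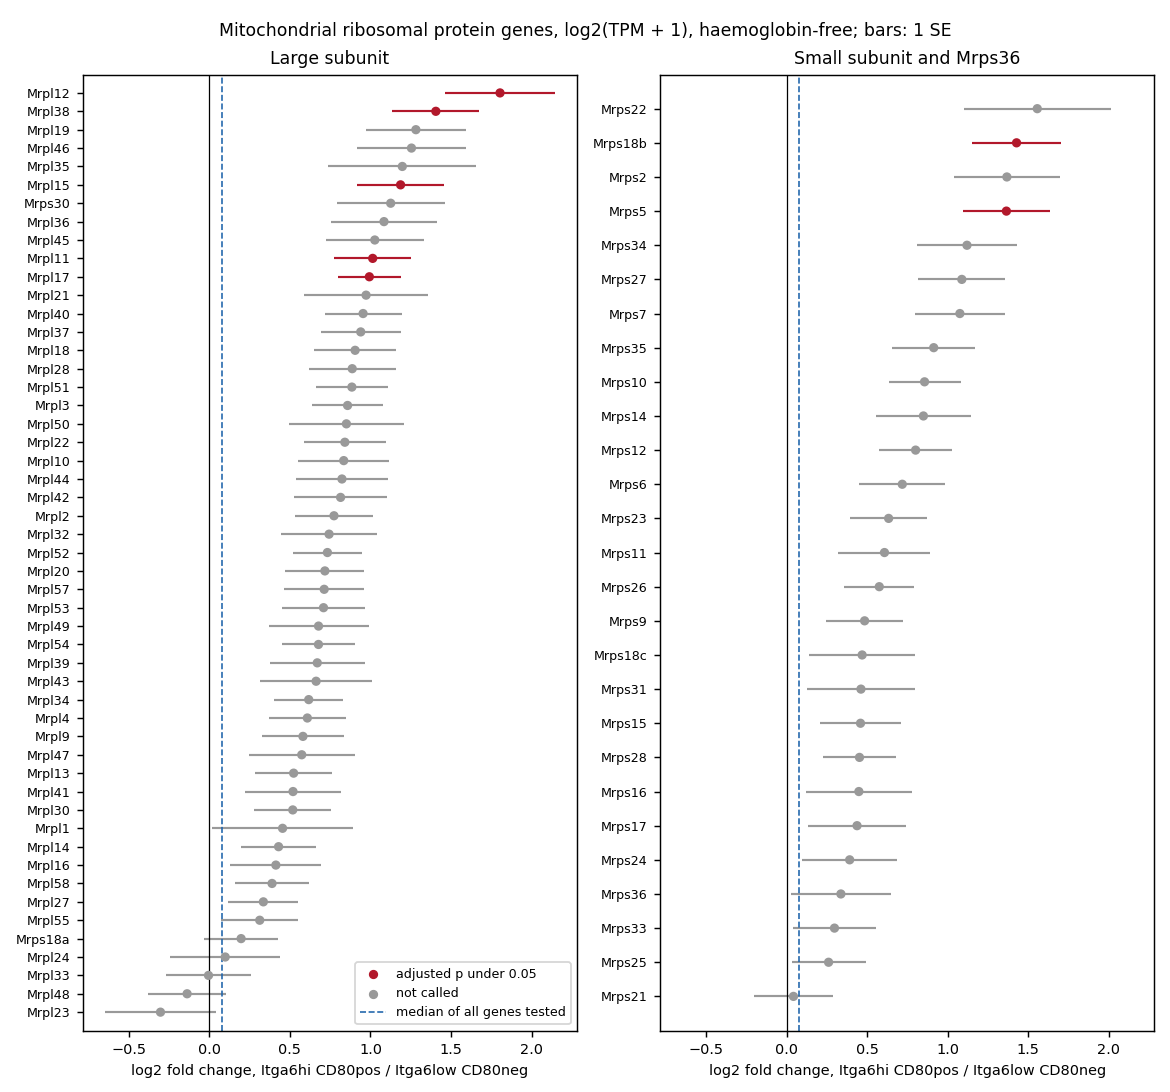
Log2 fold change of each of the 78 genes (x axis; points with bars of 1 SE from limma), by subunit, sorted within each panel; red points passed an adjusted p under 0.05 and the dashed line is the median of all genes tested, 0.08. Mrpl12 is at the top at 1.80 and Mrpl23 at the bottom at -0.30, and 7 points are red.

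The small subunit had a median log2 fold change of 0.62. Of its 26 genes, 2 were called higher (7.69%, near the 7.48% of all genes). All 26 values were above 0, against 52.8% of all genes. Mrps5, a core protein near the entry of the messenger RNA (chromosome 2, 127587222 to 127606829, plus strand), had 75.4 and 60.6 TPM against 29.5 and 22.3. Its log2 fold change was 1.36 ± 0.27 (SE, adjusted p = 0.0347), and it was called under all 5 scalings. Mrps2, another core protein, stood at 25.6 and 22.6 TPM against 10.4 and 7.26, a similar difference that just missed the threshold (1.37 ± 0.33 SE, adjusted p = 0.0507) and was called under the other 4 scalings. Mrps22, a mitochondria-specific protein (chromosome 9, 98588730 to 98601660, minus strand), came next to Mrpl12 in fold change among all members. It stood at 34.2 and 29.3 TPM against 6.55 and 15.4, and the distance between its Itga6low CD80neg libraries left it without a call (1.56 ± 0.46 SE, adjusted p = 0.0752). Lowest in this subunit was Mrps21, which like its bacterial counterpart is a short protein. It stood at 239 and 229 TPM against 195 and 265, with overlapping groups (0.04 ± 0.24 SE, adjusted p = 0.912). Mrps33 stood at 86.9 and 65.2 TPM against 55.0 and 67.7 and also overlapped, whereas Mrps25 stood at 56.4 and 48.7 TPM against 40.5 and 46.9, a small gap (adjusted p = 0.457).

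The Mrps18 genes are 3 relatives of the bacterial protein S18, of which the product of Mrps18a lies in the large subunit and those of Mrps18b and Mrps18c in the small one. Among them Mrps18b had the largest fold change, while those of Mrps18c and Mrps18a lay close together relative to their SE. Mrps18b (chromosome 17, 35910379 to 35916389, minus strand) stood at 72.0 and 54.3 TPM against 20.04 and 25.6 (1.43 ± 0.28 SE, adjusted p = 0.0339). Mrps18c stood at 87.1 and 67.6 TPM against 42.7 and 71.2 (0.47 ± 0.33 SE, adjusted p = 0.360), with overlapping groups. Mrps18a stood at 54.7 and 46.0 TPM against 41.7 and 45.5 (0.20 ± 0.23 SE, adjusted p = 0.570), where the groups nearly touched. The call of Mrps18b was kept under 4 of 5 scalings and missed under quantile normalization (adjusted p = 0.0524), and the differences between the relatives were not tested. Mrps36, whose product belongs to the oxoglutarate dehydrogenase complex rather than the mitoribosome, stood at 39.3 and 33.0 TPM against 35.1 and 22.8, with overlap (adjusted p = 0.475).

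By origin of the protein, genes with a bacterial counterpart (46) had a median log2 fold change of 0.67 and mitochondria-specific ones (31) of 0.73. Of these, 5 (10.9%) and 2 (6.45%) were called higher, against 7.48% of all genes. Mrps18a and Mrps18b were counted as mitochondria-specific and Mrps18c as having a bacterial counterpart, although all are relatives of the bacterial protein S18. Summed small subunit genes stood at 47.8 and 46.0 TPM per 100 TPM of large subunit genes in Itga6hi CD80pos against 49.0 and 50.8. The small subunit's ratio was thus lower in both Itga6hi CD80pos libraries, by 0.09 on the log2 scale (exact permutation p = 0.3333), and the difference between the origins was not tested.

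Levels differed far more between members than between groups. They ran from 3.85 TPM for Mrpl1 in an Itga6low CD80neg library to 330 TPM for Mrpl52 in an Itga6hi CD80pos library. Mrpl52, a mitochondria-specific large subunit protein, had the highest mean level, at 325 and 330 TPM against 180 and 215 (adjusted p = 0.0758). Mrps21, Mrpl17, Mrpl33 and Mrpl30 followed, and the means of Mrps21 (234 ± 7.22 TPM, SD, n = 2) and Mrpl17 (256 ± 8.37 TPM) in Itga6hi CD80pos stood only slightly apart. Mrpl30 stood at 141 TPM in both Itga6hi CD80pos libraries against 84.3 and 114 TPM. The lowest means belonged to Mrps31, at 15.4 and 11.7 TPM against 9.02 and 9.93, to Mrps30, given above, and to Mrpl1, at 8.53 and 6.35 TPM against 3.85 and 6.69. The order of the genes was much alike in all libraries. Spearman's rho over the 78 genes was 0.983 between the Itga6hi CD80pos libraries, 0.930 between the Itga6low CD80neg libraries and 0.876 to 0.931 between libraries of different groups, as a description, since the genes share each library. Against the length of the longest coding transcript, rho was -0.318 for the mean level and 0.279 for the log2 fold change. Within groups, 69 of 78 genes were higher in Itga6hi CD80pos replicate 1 than in replicate 2, and 61 of 78 were lower in Itga6low CD80neg replicate 1 than in replicate 2, so the genes also moved together between libraries of 1 group, by medians of 0.22 and 0.32 on the log2 scale.

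**Figure D3:**
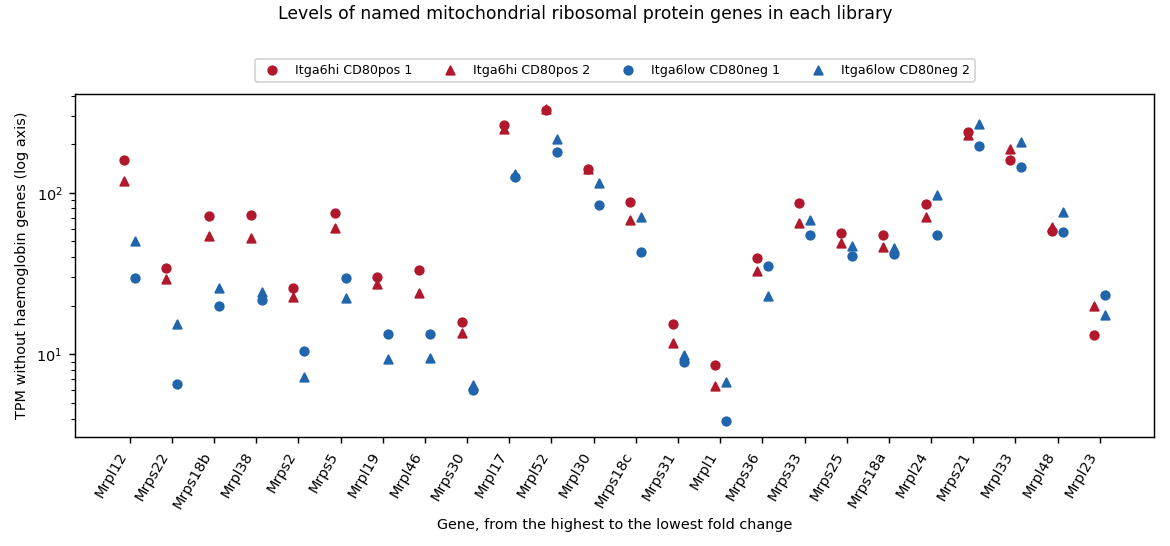
TPM without haemoglobin genes (y axis, log scale) of 24 named members in the 4 libraries (red, Itga6hi CD80pos; blue, Itga6low CD80neg; circle, replicate 1; triangle, replicate 2), ordered from the highest to the lowest fold change. Red and blue points are well apart from Mrpl12 to Mrpl17 and interleave from Mrpl24 to Mrpl23.

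Several members have pseudogenes, copies in the genome that are annotated as inactive, and the authors' table lists them as genes of their own. Pseudogenes of every annotated type were searched, and a copy may match only part of a member. Matching GENCODE transcripts at 90% identity over 80% of the copy found 42 copies of 25 members, of which 33 were listed at 0 in every library and 3 reached 5 TPM. For Mrpl23 the copy Mrpl23-ps1 held more than the gene itself, at 96.1 and 95.9 TPM against 55.9 and 67.7. Gene and copy together stood at 109 and 116 TPM against 79.0 and 85.3, and the log2 fold change turned from -0.30 to 0.45 ± 0.20 (SE, adjusted p = 0.174). For Mrps26 the copy, a predicted pseudogene model, also held more than the gene, but the fold change moved the other way. The gene alone stood at 77.7 and 72.2 TPM against 46.2 and 54.0 (0.58), and the copy at 101 and 86.3 TPM against 138 and 123. Together they stood at 179 and 158 TPM against 184 and 177 (-0.10 ± 0.20 SE, adjusted p = 0.750). Mrps33 with its copies stood at 98.3 and 83.2 TPM against 73.0 and 80.8. Mrps26 was chosen after its values were seen. The values of these 3 genes are uncertain for that reason, since which locus the reads came from was not resolved. With all copies added, 8 members were called higher in place of 7, Mrpl19 being the addition, and the median stayed at 0.72.

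Summed over the members, the mitoribosomal messenger RNAs made up 0.601% and 0.534% of haemoglobin-free TPM in Itga6hi CD80pos against 0.318% and 0.402% in Itga6low CD80neg, a 1.58-fold difference. The groups did not overlap, and the exact two-sided permutation test gave p = 0.3333, the smallest that 2 libraries against 2 allow. Measured against other groups of genes, the picture depended on the partner. Per 100 TPM of the 80 cytosolic ribosomal protein genes, the members summed to 3.02 and 2.61 TPM against 3.01 and 2.47, a ratio of 1.03 between the groups that is smaller than the spread within them (exact permutation p = 0.6667). Per 100 TPM of messenger RNAs encoded in mitochondrial DNA, they summed to 22.4 and 19.0 TPM against 12.96 and 13.2, a 1.58-fold difference without overlap (exact permutation p = 0.3333). These ratios do not depend on the total to which a library is scaled. The cytosolic genes alone made up 19.9% and 20.4% against 10.6% and 16.3% of TPM, and messenger RNAs of mitochondrial DNA 2.68% and 2.80% against 2.45% and 3.05%.

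**Figure D4:**
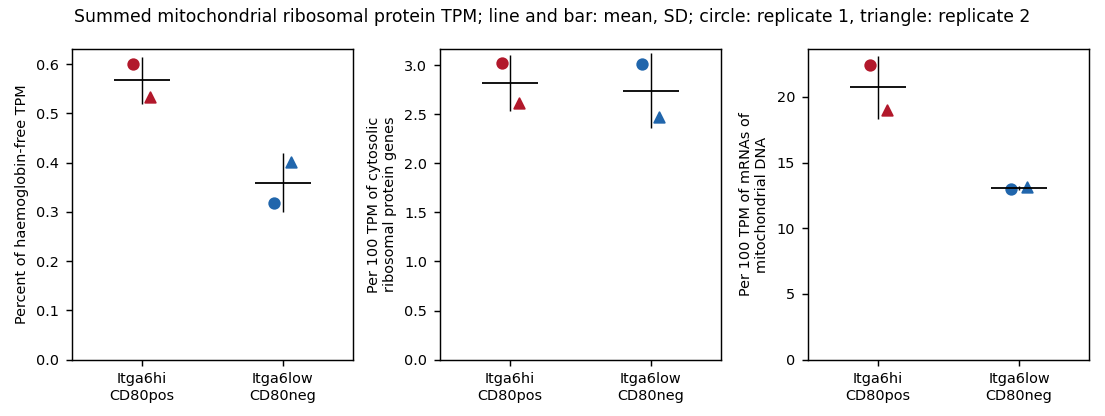
Summed TPM of the 78 genes in each library (points; line and bar, mean and SD of 2 libraries), as percent of haemoglobin-free TPM, per 100 TPM of cytosolic ribosomal protein genes and per 100 TPM of messenger RNAs of mitochondrial DNA (y axes from 0). The groups are apart in the first and last panel, at 0.567 against 0.360 percent and 20.7 against 13.1 TPM, and overlap in the middle one.

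The rest of the mitochondrial translation pathway was read beside the members. In the limma fit 7.48% of all genes were called higher and 12.1% lower, and 52.8% had a log2 fold change above 0. At an unadjusted p under 0.05 the shares of all genes were 17.4% higher and 21.0% lower. Of 5 mitoribosomal proteins with other symbols, Ptcd3, an RNA-binding protein of the small subunit, was higher, at 42.0 and 35.9 TPM against 16.5 and 14.6 (1.27 ± 0.26 SE, adjusted p = 0.0366), and the list's median was 0.67. Among 12 translation factors (median 0.78) the elongation factors Gfm1, at 61.5 and 47.6 TPM against 20.2 and 12.1, and Tufm, at 138 and 106 TPM against 44.9 and 49.6, were higher (adjusted p = 0.0354 and 0.0283) and 0 were lower. Of 25 genes of mitoribosome assembly and rRNA modification (median 0.45) 0 passed limma's test in either direction, with 3 higher and 0 lower at an unadjusted p under 0.05. The most abundant of them, the maturation factor Rbfa, stood at 43.8 and 45.4 TPM against 31.1 and 33.6, and Mpv17l2 at 39.3 and 30.8 TPM against 27.2 and 24.1. Assembly factors thus had a smaller median difference than the ribosomal proteins themselves, a contrast that was not tested.

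Of 18 mitochondrial tRNA synthetases and the formyltransferase (median 0.60), Yars2 was higher, at 19.0 and 17.3 TPM against 5.67 and 6.02, and Lars2 was lower, at 144 and 199.8 TPM against 1008 and 813 (-2.41 ± 0.28 SE, adjusted p = 0.0149). Whether reads of other transcripts were assigned to Lars2 was not tested, so its level and its call are uncertain, and on deposited TPM it was not called (adjusted p = 0.108). Lars2 alone held most of that list's summed TPM in Itga6low CD80neg, 1145 and 937 TPM. Of 16 RNA processing genes (median 0.88), Tbrg4, at 78.2 and 67.0 TPM against 27.1 and 14.5, and Lrpprc, a stabiliser of mitochondrial messenger RNA, at 25.4 and 19.97 TPM against 7.43 and 5.23, were higher. Protein import, which brings the ribosomal proteins into the organelle, had 7 of 25 genes higher (28.0%, against 7.48% of all genes) and 0 lower (median 0.93). This list also holds the chaperonin genes Hspd1 and Hspe1, which are among the 7 called. Its leading genes were the outer membrane channel Tomm40, at 192 and 165 TPM against 36.7 and 48.9, the chaperonin Hspd1, at 262 and 211 TPM against 57.1 and 57.2, and the receptor Tomm20, at 281 and 279 TPM against 83.1 and 92.7.

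Mitochondrial transcription and genome upkeep (12 genes, median 0.50) had 0 calls by limma, with 3 higher and 0 lower at an unadjusted p under 0.05. The packaging factor Tfam stood at 24.2 and 22.8 TPM against 17.2 and 15.3 and the single-strand binding protein Ssbp1 at 39.8 and 31.8 TPM against 21.0 and 29.5. Of 9 tested regulators (median 0.79), the nuclear receptor Esrra was higher, at 67.2 and 58.8 TPM against 20.4 and 27.6 (1.37 ± 0.26 SE, adjusted p = 0.0335). The products of mitochondrial DNA did not share the direction of the nuclear genes: 5 of 15 had a log2 fold change above 0 and their median was -0.15. The small subunit ribosomal RNA mt-Rnr1 was lower, at 244 and 238 TPM against 625 and 761 (-1.51 ± 0.23 SE, adjusted p = 0.0227), a call kept under 2 of 5 scalings, and poly(A) selection measures ribosomal RNA poorly. Cytosolic ribosomal proteins had a median of 0.61 with 77 of 78 tested genes above 0, 0 called higher (7 at an unadjusted p under 0.05) and 1 called lower.

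**Figure D5:**
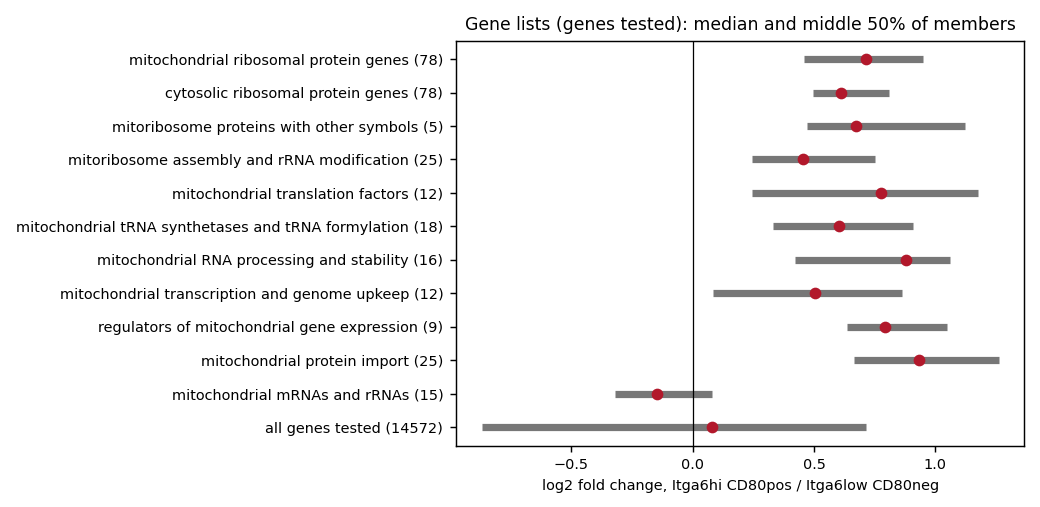
Median (point) and middle 50% (bar) of the log2 fold changes of each gene list (x axis), with the number of genes tested in brackets. The lists of nuclear mitochondrial genes have medians from 0.45 to 0.93, mitochondrial mRNAs and rRNAs one of -0.15 and all genes one of 0.08.

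Leaving out a library leaves 1 in its group, which is then assumed to vary like the other group. Without Itga6hi CD80pos replicate 1 or replicate 2, limma called 0 members, with 1 and 4 at an unadjusted p under 0.05, and 0 genes of the whole table either way. The members' median log2 fold change was then 0.63 and 0.79, close to the 0.72 of all libraries. Without Itga6low CD80neg replicate 1, 5 members were called (11.6% of all genes were higher), and without its replicate 2, 31 (12.0%), while the members' median less that of all genes was 0.32 and 0.98 against 0.64 with all libraries. Without Itga6low CD80neg replicate 1, 5 of the 7 calls were lost, those of Mrpl11, Mrpl12, Mrpl15, Mrpl38 and Mrps18b, and without its replicate 2 those of Mrpl38 and Mrps5 were lost. Over the 5 scalings that excess ran from 0.47 to 0.77, and 7, 74, 9, 8 and 24 members were called, beside 7.48%, 57.0%, 9.93%, 9.83% and 12.2% of all genes: haemoglobin-free, as deposited, by median of ratios, by quantiles, and without mitochondrial, ribosomal, haemoglobin and keratin genes. The direction of the median was the same in each, and Mrpl12, Mrpl38 and Mrps5 were called in each. Whether the libraries of a group came from separate animals is not said in the labels, and the p-values then cover only the spread between these libraries.

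The remaining settings gave other counts of members, each beside the share of all genes called. A pseudocount of 0.1 called 9 members higher (7.61% of all genes, 13.3% lower) and one of 5 called 5 (5.48%, 7.52% lower). A mean of at least 5 TPM called 8 (8.33%, 9.97% lower), and a spread without a trend called 1, Mrpl12 (5.69%, 10.4% lower). With no filter limma called 0 members, 43 of which were higher at an unadjusted p under 0.05, and 0.0326% of all genes higher and 0.365% lower. A block for the replicate number called 6 (8.56%, 15.3% lower), and adding pseudogene copies called 8 (7.49%, 12.1% lower). In the scalings the shares called lower were 9.48% as deposited, 13.7% by median of ratios, 10.0% by quantiles and 12.3% without the named families, and with an Itga6low CD80neg library left out 13.5% (replicate 1) and 20.3% (replicate 2). When the filter was applied again to the 3 libraries left, 0 members were called without either Itga6hi CD80pos library (0.378% and 0.849% of all genes higher, 3.72% and 4.74% lower). Without Itga6low CD80neg replicate 1 there were 15 (19.4%, 6.91% lower) and without its replicate 2 there were 40 (16.8%, 14.5% lower). For the reverse order, the Itga6hi CD80pos libraries both lay below the others in 32.3% of all genes and in 0 members.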

How the data were processed

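The deposited table gives TPM per gene, scaled by the authors to 1000000 per library, for 4 libraries; kallisto 0.44.0 and mm10 are named in the submitters' processing notes, and the annotation, the summing to genes and filters are not given in the sources used here. Haemoglobin genes were left out and the rest rescaled to 1000000. The 14572 genes that reached 1 TPM in 2 or more libraries were tested on log2(TPM + 1), a scale that understates the change of low genes, with limma 3.58.1 in R 4.3.3 (trend, 2 residual and 2.72 prior degrees of freedom), two-sided, Benjamini-Hochberg adjusted. The members and lists were chosen with earlier results of these data known. Values per library are given for the 8 highest and 8 lowest members by fold change whose higher group averaged 5 TPM or more, the 5 highest and 3 lowest by level, the Mrps18 genes, Mrps30 and Mrps36, up to 3 called genes (otherwise the 2 most abundant) per pathway list, the marker with the highest level of each cell type list, and Itga6 and Cd80, but not for predicted models; members called lower or listed at 0 would have been added, and there were none. Lists covered other mitoribosomal proteins, assembly, translation factors, tRNA synthetases, RNA processing, transcription, regulators, import, mitochondrial transcripts and markers of 8 cell types. Coordinates are from GENCODE M21 (GRCm38, which mm10 names), pseudogene matches from blastn 2.17.0. The fit was tested on simulated data. Alternatives were scalings, pseudocounts of 0.1 and 5, filters, no trend, a replicate block and leaving out each library.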

Additional observations from a re-analysis of the deposited data

How the results depend on the processing

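Haemoglobin-free TPM gave 1090 genes higher and 1765 lower. On deposited TPM 7686 genes and 74 members were higher, the median log2 fold changes were 1.27 for all genes, 2.04 for members, 2.06 for the large and 1.96 for the small subunit, the log2 ratio of the members' share was 2.06, and Mrpl23 turned to 0.99. Without the genes of mitochondrial DNA, ribosomal proteins, haemoglobins and keratins there were 1847 genes and 24 members higher and a small subunit median of 0.85. With no filter, which tests 30652 genes, 10 genes were higher and 112 lower, and 0 members were called, with 43 higher at an unadjusted p under 0.05. Without a trend 1 member was called. A pseudocount of 5 gave 1096 genes lower, and a mean of at least 5 TPM, which tests fewer genes, 1033. Leaving out each library in turn gave 0 to 1744 genes higher, 0 to 2952 lower, 0 to 31 members higher and an excess of the members' median over all genes of 0.32 to 0.98. Applying the filter again to the 3 libraries left, a setting chosen after seeing the data like the added pseudogene copies, gave 53, 119, 2447 and 2126 genes higher, 521, 664, 873 and 1834 lower, 0, 0, 15 and 40 members higher and an excess of 0.17 to 0.81. Where no construction is named, the cause was not tested. The replicate block gave 1247 genes higher, 2226 lower and 6 members higher, without Mrpl11 and Mrpl17 and with Mrps7; deviations of same-numbered libraries correlated at 0.106 over genes, and the numbers are not known to pair the samples. In each of these settings 0 members were called lower and the members' median was above 0. With TPM alone, no detection limit from depth can be given.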

Other observations

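Many members start close to another gene on the opposite strand. In GENCODE M21, 26 of 78 members (33.3%) had the start of a protein-coding gene within 1000 bases in a divergent arrangement (or overlapping by up to 500 bases), against 9.53% of 21951 protein-coding genes. That background includes genes that did not pass the filter, which all members passed, and the share among genes tested was not determined. Mrpl46 and Mrps11, 1 gene of each subunit, form such a pair, with log2 fold changes of 1.25 and 0.61. Of the 23 tested neighbours that are not members themselves, 19 had a log2 fold change above 0 (82.6%, against 52.8% of all genes). Among the 23, 2 were called higher and 1 lower, beside 7.48% and 12.1% of all genes. The 2 were chromosome segregation genes: Ncapd2, a condensin subunit beside Mrpl51 (2.46, adjusted p = 0.0268), and Ska3, of the kinetochore, beside Mrpl57 (2.28, adjusted p = 0.0282). Their ribosomal partners stood at 0.88 and 0.71. Wdfy1, beside Mrpl44, was lower (-2.08, adjusted p = 0.0293) while Mrpl44 itself stood at 0.82, so partners across a shared start region did not always have the same direction. The 3 neighbours were chosen after their values were seen.

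Among regulators without a call, Nrf1, a factor of nuclear genes for mitochondria, stood at 24.4 and 22.2 TPM against 12.7 and 9.14 (adjusted p = 0.0793) and Yy1 at 30.2 and 28.6 TPM against 16.3 and 11.5 (adjusted p = 0.0718). Gabpa stood at 17.4 and 14.8 TPM against 16.5 and 11.4, with overlap. Myc stood at 73.0 and 93.5 TPM against 120 and 22.9, the widest spread within a group in that list. These 4 were also chosen after their values were seen.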
